A study of Homo sapiens with 8 samples.

Results

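Benzo[a]pyrene (BaP) was compared with its solvent after 12 h in HepG2 cells, a human hepatocellular carcinoma line. The comparison holds 4 poly-A RNA sequencing libraries of the 8 in the study, picked by their labels, and all genes counted in them. The 2 BaP libraries came from cells given 2 µM BaP in DMSO, and the 2 vehicle libraries from cells given 0.5% DMSO, in fresh medium at 80% confluence. Per the labels, the replicates of a group are independent experiments. The other 4 libraries received the same treatments for 24 h and enter here through the shared estimate of spread and through a test of whether the response differed between times. HepG2 is 1 tumour line grown without other cell types.

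BaP is a polycyclic aromatic hydrocarbon formed by incomplete combustion. It binds the aryl hydrocarbon receptor (AHR), which enters the nucleus, pairs with ARNT and switches on genes such as the cytochrome P450 CYP1A1. The P450 enzymes and epoxide hydrolase turn BaP into a diol epoxide that binds guanine in DNA, and aldo-keto reductases can turn its diols into quinones that cycle with oxygen. Electrophiles release the transcription factor NRF2 from its inhibitor KEAP1, and damaged DNA stabilises p53. HepG2 cells also carry an activated form of beta-catenin, so WNT target genes are on in untreated cells.

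The RNA of the 4 libraries had 8272319 and 12443348 estimated counts with BaP and 13363783 and 14048067 with vehicle. Levels are given as CPM, counts per 1000000 after scaling between libraries, for replicate 1 and then replicate 2. Log2 differences are BaP minus vehicle, with standard errors, from edgeR's quasi-likelihood test, in which 14746 of 49733 gene IDs were tested and a gene passed at a Benjamini-Hochberg adjusted p under 0.05. Replicates differed with an SD of 0.17 (BaP) and 0.24 (vehicle) in log2 CPM over 7271 genes with a mean log2 CPM over 4, and each of the 4 differences between a BaP and a vehicle library had an SD of 0.34 to 0.39. All 10 hepatocyte and fetal liver markers were tested, among them ALB and AFP, and 1 of them, APOB, fell. Of 20 markers of other cells found in the files, DCN, LUM, KDR, TEK, CD3E and CFTR were at 0 in all 4 libraries, and 9 were tested. Of the cholangiocyte markers, KRT19 stood at 359 and 286 CPM with BaP and 547 and 348 CPM with vehicle, and SOX9 at 310.3 and 258 CPM with BaP and 287 and 272 CPM with vehicle. KRT19 did not pass with all libraries but did without vehicle replicate 2 (log2 -0.78, adjusted p = 0.017). The leukocyte marker CD68 stood at 46.5 and 42.3 CPM with BaP and 40.7 and 36.8 CPM with vehicle and the fibroblast marker COL1A1 at 19.8 and 10.9 CPM with BaP and 42.4 and 19.1 CPM with vehicle. The summed level in replicates 1 and 2 was 28.9 and 20.01 CPM with BaP and 59.9 and 35.3 CPM with vehicle for the fibroblast markers, and at most 1.33 CPM for the endothelial ones. For the leukocyte markers it was 593 and 589 CPM with BaP and 551 and 671 CPM with vehicle, and for the cholangiocyte markers 670.2 and 544 CPM and 835 and 621 CPM. PDGFRB fell (8.95 and 9.08 CPM with BaP and 17.3 and 15.9 CPM with vehicle, kept in each fit with 1 library left out), CD14 was higher (2.79 and 3.39 CPM with BaP and 1.55 and 1.47 CPM with vehicle; adjusted p = 0.37 without BaP replicate 2), and LYZ stood at 509 to 631 CPM in both groups. The part of these marker genes in the results was not tested. In bulk RNA, fewer cells that express a gene and less of its RNA per cell cannot be told apart.

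After 12 h with BaP, 8.25% of the genes tested had changed: 503 genes were higher (3.41%) and 713 were lower (4.84%). CYP1A1 was about 202-fold higher, and 7 of 13 AHR targets, 19 of 27 NRF2 targets and 9 of 11 p53 targets that stop the cell cycle rose. Of the 125 genes that span over 500 kb, 52.0% fell, and so did the glucose transporters SLC2A1, SLC2A2 and SLC2A3. Most changes were modest: the median fold was 1.67 among the higher and 1.69 among the lower genes, and 153 and 246 exceeded 2-fold. The genes that rose took 3.73% and 3.70% of all CPM with BaP against 1.95% and 1.91% with vehicle, and those that fell took 4.98% and 5.17% against 8.20% and 8.26%. For all 503 and 713 genes the BaP libraries did not overlap with the vehicle libraries, while of all genes tested 25.4% had both BaP libraries above and 23.9% had both below. Fits that left out 1 library called fewer genes: 174 higher and 250 lower without BaP replicate 1, 212 and 351 without BaP replicate 2, 335 and 425 without vehicle replicate 1, and 317 and 566 without vehicle replicate 2. DESeq2's Wald test called 292 and 508. Of the genes called with all libraries, 135 of the higher and 219 of the lower passed in all 4 fits with 1 left out. A call is named as kept below where it passed in all 4 of these fits, and otherwise the highest adjusted p among them is given with the library left out. Where 4 counts of list members follow a count, they are those without BaP replicate 1, BaP replicate 2, vehicle replicate 1 and vehicle replicate 2.

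**Figure D1:**
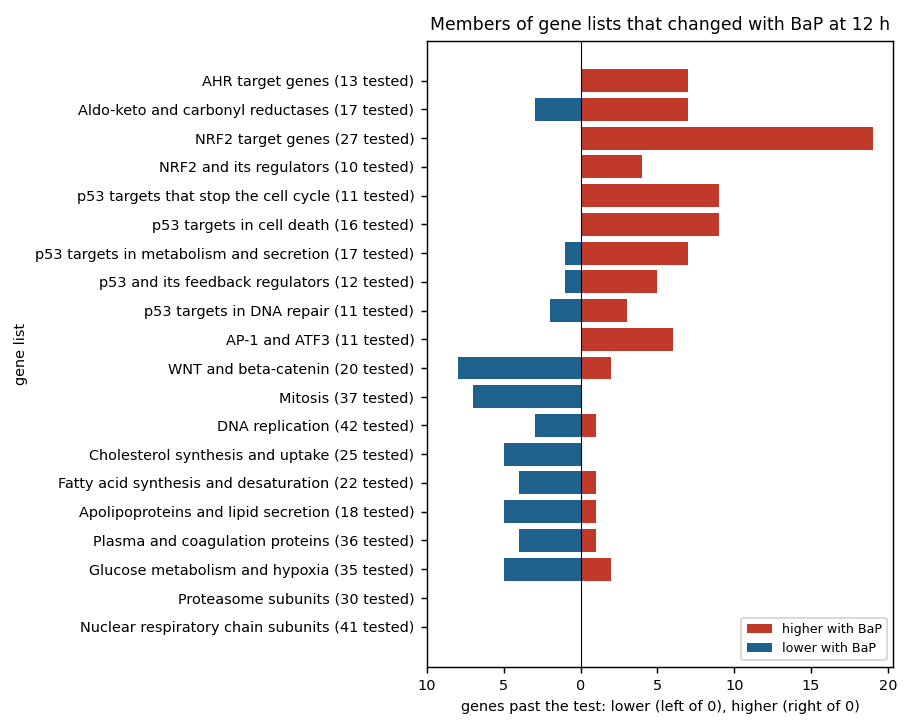
Number of genes in each of 20 gene lists that passed the test at 12 h (x axis, genes), lower with BaP to the left of 0 and higher to the right, with the number of members tested beside each list name. NRF2 targets had 19 of 27 members higher and none lower, while WNT genes had 2 higher and 8 lower.

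The largest rise of all was in an AHR target gene. CYP1A1 (ENSG00000140465), the P450 that oxidises BaP, stood at 966 and 1059.8 CPM with BaP and 6.57 and 3.49 CPM with vehicle. Both BaP libraries were far above both vehicle libraries (log2 7.66 ± 0.24, adjusted p = 1.3e-10). ALDH3A1 (ENSG00000108602), which oxidises aldehydes and is under AHR control, stood at 34.3 and 29.6 CPM with BaP and 1.03 and 0.908 CPM with vehicle (log2 5.02 ± 0.25, adjusted p = 3.5e-09). AHRR, the repressor that competes with AHR for ARNT, stood at 10.1 and 7.85 CPM with BaP and 1.18 and 1.05 CPM with vehicle (log2 2.99 ± 0.32, adjusted p = 1.3e-05). NQO1, a quinone reductase under both AHR and NRF2, stood at 1003 and 980.0 CPM with BaP and 379 and 411 CPM with vehicle (log2 1.33 ± 0.15, adjusted p = 1.8e-05). All 4 calls were kept, and the groups did not overlap for these 4 genes, as for all genes that rose. CYP1B1, a mainly extrahepatic P450 that also activates BaP, had 20 and 18 counts with BaP and 1 and 0 with vehicle. The depth-scaled ratio was 49.0 (exact 95% interval 8.29 to 1987, for counting error alone), and its call was lost in 1 fit (adjusted p = 0.053 without BaP replicate 1). SERPINB2, a protease inhibitor of the plasminogen system, had 16 and 30 counts with BaP and 0 and 1 with vehicle, a ratio of 59.4 (10.1 to 2395) whose call was kept. ABCG2, an efflux pump, was also higher (0.76 ± 0.22), but its call was lost without any 1 library (adjusted p = 0.23 without vehicle replicate 1).

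In all, 7 of 13 AHR targets tested were higher and 0 lower, with a median log2 difference of 0.89 against 0.02 over all genes tested. DESeq2's Wald test called 4 of them, with no adjusted p for CYP1B1 and SERPINB2. The members that did not pass were CYP1A2 (0.89 ± 0.46; 15, 21, 10 and 15 counts), CYP2S1 (0.33 ± 0.12), the amino acid transporter SLC7A5 (0.25 ± 0.15), HES1 (0.20 ± 0.13), EREG (0.40 ± 0.43) and TIPARP (0.11 ± 0.22), an ADP-ribosyltransferase that acts on AHR. TIPARP stood at 9.76 and 8.85 CPM with BaP and 6.94 and 10.2 CPM with vehicle, so its groups overlapped. Another 3 targets were below the filter on low counts: UGT1A6 had 3 counts in BaP replicate 1 and none elsewhere, LRAT had 2, 2, 3 and 3 counts, and XDH had none. The genes of the receptor and its partner did not pass: AHR stood at 26.97 and 30.4 CPM with BaP and 30.1 and 39.6 CPM with vehicle (log2 -0.28 ± 0.16, adjusted p = 0.36) and ARNT at 34.3 and 37.3 CPM with BaP and 39.2 and 35.9 CPM with vehicle (log2 -0.07 ± 0.13, adjusted p = 0.85). In the list of AHR and its partners, to which the P450 gene CYP2W1 had also been assigned, 0 of 12 rose and 2 fell, the coactivator gene NCOA1 (-0.68 ± 0.15; adjusted p = 0.20 without BaP replicate 1) and CYP2W1 (-0.53 ± 0.14; adjusted p = 0.32 without BaP replicate 2).

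The RefSeq promoter windows of 4 genes that rose, 250 bases before to 50 after the start (GRCh38.p14), are shown because they hold short motifs bound by AHR or by NRF2. The CYP1A1 window is chr15:74725479-74725778 (minus strand), NQO1 is chr16:69726511-69726810 (minus), GCLM is chr1:93909381-93909680 (minus) and OSGIN1 is chr16:83952990-83953289 (plus). Capitals mark matches, on both strands, to GCGTG (the core bound by AHR and ARNT), TGACNNNGC (the core of the antioxidant response element bound by NRF2) and TGANTCA (the AP-1 site, whose letters can overlap that element).
CYP1A1: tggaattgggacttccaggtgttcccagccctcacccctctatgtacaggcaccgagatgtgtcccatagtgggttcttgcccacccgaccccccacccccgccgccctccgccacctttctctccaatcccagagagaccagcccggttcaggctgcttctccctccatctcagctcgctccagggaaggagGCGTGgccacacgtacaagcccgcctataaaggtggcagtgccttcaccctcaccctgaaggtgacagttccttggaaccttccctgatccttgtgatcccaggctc
NQO1: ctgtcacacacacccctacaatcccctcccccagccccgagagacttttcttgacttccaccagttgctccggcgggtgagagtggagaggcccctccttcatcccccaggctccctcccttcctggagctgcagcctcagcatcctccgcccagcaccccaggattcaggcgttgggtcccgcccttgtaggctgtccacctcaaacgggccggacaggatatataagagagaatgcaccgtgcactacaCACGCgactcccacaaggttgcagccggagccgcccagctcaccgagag
GCLM: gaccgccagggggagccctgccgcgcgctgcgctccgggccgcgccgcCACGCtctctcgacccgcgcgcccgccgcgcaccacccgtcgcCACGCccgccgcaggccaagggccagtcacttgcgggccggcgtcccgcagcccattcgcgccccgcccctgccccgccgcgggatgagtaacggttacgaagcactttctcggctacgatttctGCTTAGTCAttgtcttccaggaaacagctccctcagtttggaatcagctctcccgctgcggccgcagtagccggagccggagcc
OSGIN1: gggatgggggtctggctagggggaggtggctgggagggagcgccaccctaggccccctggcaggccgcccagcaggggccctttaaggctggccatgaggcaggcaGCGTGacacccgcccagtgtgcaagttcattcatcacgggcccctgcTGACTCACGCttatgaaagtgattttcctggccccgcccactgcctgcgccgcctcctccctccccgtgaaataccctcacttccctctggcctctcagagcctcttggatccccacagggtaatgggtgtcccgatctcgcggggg
The CYP1A1 and NQO1 windows held 1 GCGTG each, the GCLM window 2 GCGTG and 1 TGACNNNGC, and the OSGIN1 window 2 GCGTG and 1 TGANTCA. Of the 35116 windows that RefSeq gave, 36.5% held GCGTG, 13.3% TGACNNNGC and 7.71% TGANTCA, so a match is a description of the letters and not a site. The table held a window for 925 of the 1178 named genes that passed (78.5%), which is too few for a count over them.

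Enzymes that reduce carbonyls and quinones rose with the AHR targets. AKR1B10 (ENSG00000198074), an aldo-keto reductase, stood at 197 and 197 CPM with BaP and 29.4 and 32.6 CPM with vehicle (log2 2.67 ± 0.15, adjusted p = 8.2e-09). PTGR1, which reduces prostaglandins and unsaturated aldehydes, stood at 57.4 and 56.96 CPM with BaP and 12.9 and 15.2 CPM with vehicle (log2 2.02 ± 0.13, adjusted p = 4.7e-08). The replicates of these 2 genes lay close together, and the groups did not overlap, as for all genes that rose. AKR1C1 (1652 and 1679 CPM with BaP and 434 and 481 CPM with vehicle, log2 1.86 ± 0.20, adjusted p = 1.5e-05), AKR1C2 (1.80 ± 0.20) and AKR1C3 (0.82 ± 0.15), which can oxidise the trans-dihydrodiol of BaP, rose as well, but reads of AKR1C1 and AKR1C2 can be divided between them because their sequences are nearly the same. EPHX1, the microsomal epoxide hydrolase that makes that dihydrodiol, stood at 217 and 195 CPM with BaP and 132 and 123 CPM with vehicle (log2 0.69 ± 0.11, adjusted p = 0.00071). All 6 calls were kept. NQO2 was higher too (0.65 ± 0.16; adjusted p = 0.20 without BaP replicate 1). DHRS2, a mitochondrial dehydrogenase, went the other way at 896 and 959 CPM with BaP and 1999 and 1779 CPM with vehicle (log2 -1.03 ± 0.15, adjusted p = 0.00032, kept). So did AKR1D1, the bile acid 5-beta-reductase (-1.51 ± 0.34; adjusted p = 0.13 without BaP replicate 1), and EPHX2, the soluble epoxide hydrolase (-0.70 ± 0.18; adjusted p = 0.17 without BaP replicate 1). In all, 7 of 17 reductases and hydrolases tested rose and 3 fell, with a median of 0.29. Of 15 aldehyde dehydrogenases tested 2 rose and 3 fell (median -0.08). Beside ALDH3A1, the folate enzyme ALDH1L1 was higher (0.64 ± 0.13; adjusted p = 0.13 without BaP replicate 2). ALDH3B1 (-1.18 ± 0.23; adjusted p = 0.064 without BaP replicate 1), ALDH6A1 (-0.96 ± 0.19; adjusted p = 0.090 without BaP replicate 1) and ALDH18A1 (-0.49 ± 0.12; adjusted p = 0.31 without BaP replicate 1) were lower.

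Of 13 glutathione S-transferases tested 1 rose: MGST1, a membrane-bound transferase and peroxidase, at 159 and 164 CPM with BaP and 82.5 and 92.6 CPM with vehicle (log2 0.88 ± 0.12, adjusted p = 0.00020, kept). Of 7 UDP-glucuronosyltransferase genes tested 0 passed in edgeR or DESeq2 and 2 at an unadjusted p under 0.05, and of the 16 in the list 9 were below the filter on low counts. SULT1A2 was the sulfotransferase that passed (0.68 ± 0.14; adjusted p = 0.058 without BaP replicate 1), and its reads can be divided with SULT1A1. Among P450 genes outside the CYP1 family, 4 of 14 rose (2, 1, 3 and 2 with 1 library left out) and 1 fell. CYP4F11, a fatty acid omega-hydroxylase, stood at 76.3 and 81.5 CPM with BaP and 22.9 and 23.6 CPM with vehicle (log2 1.76 ± 0.12, adjusted p = 1.0e-07, kept), and both BaP libraries were more than 3 times as high as either vehicle library. CYP4F3, whose sequence is close to it, was also higher (1.03 ± 0.18; adjusted p = 0.051 without BaP replicate 2). The export pumps ABCC2 (MRP2), which moves conjugates into bile, and ABCB6, a porphyrin transporter, rose by 0.95 ± 0.14 and 0.75 ± 0.11, both kept. In all, 4 of 12 transporters tested rose (2, 2, 2 and 4 with 1 library left out) and 3 fell. The falls, in ABCC6, SLC22A7 and SLCO2B1, were lost when 1 library was left out (adjusted p = 0.17 without BaP replicate 1 for ABCC6, adjusted p = 0.35 without BaP replicate 1 for SLC22A7 and adjusted p = 0.32 without BaP replicate 2 for SLCO2B1).

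Of 27 NRF2 target genes tested, 19 rose and 0 fell, with a median of 0.80. In glutathione synthesis, GCLM, the modifier subunit of glutamate-cysteine ligase, stood at 78.1 and 81.3 CPM with BaP and 12.99 and 17.6 CPM with vehicle (log2 2.38 ± 0.15, adjusted p = 2.3e-08). The catalytic subunit GCLC stood at 104 and 122 CPM with BaP and 38.6 and 47.9 CPM with vehicle (log2 1.39 ± 0.13, adjusted p = 3.1e-06). The cystine importer SLC7A11 stood at 55.6 and 55.3 CPM with BaP and 10.6 and 19 CPM with vehicle (log2 1.90 ± 0.23, adjusted p = 0.00032). For all 3 the lowest BaP library was over 2 times the highest vehicle library. In the thioredoxin and glutathione reductase arm, TXNRD1 rose by 1.39 ± 0.13 and GSR by 0.80 ± 0.12. HMOX1, which breaks down heme, stood at 116 and 133 CPM with BaP and 44.4 and 36.1 CPM with vehicle (log2 1.63 ± 0.17, adjusted p = 2.0e-05), and SLC48A1, a heme transporter, rose by 0.82 ± 0.14. OSGIN1, an oxidative stress growth inhibitor, stood at 250.2 and 231 CPM with BaP and 49.4 and 50.1 CPM with vehicle (log2 2.27 ± 0.12, adjusted p = 3.5e-09). SQSTM1, the autophagy receptor p62 that also binds KEAP1, stood at 617 and 637 CPM with BaP and 221 and 229 CPM with vehicle (log2 1.48 ± 0.15, adjusted p = 6.4e-06). NMRAL2P, a transcribed pseudogene under NRF2, was higher from a low level (5.70 and 4.85 CPM with BaP and 0.812 and 0.838 CPM with vehicle, log2 2.65 ± 0.40, adjusted p = 0.00035). All of these calls were kept.

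Other NRF2 targets gave smaller differences. The pentose phosphate genes TALDO1 (0.65 ± 0.13; adjusted p = 0.072 without BaP replicate 2) and PGD (0.53 ± 0.13; adjusted p = 0.24 without BaP replicate 2) passed in the fit to all libraries but not in each fit with 1 left out. So did the biliverdin reductase BLVRB (0.77 ± 0.18; adjusted p = 0.15 without BaP replicate 2) and thioredoxin TXN (0.60 ± 0.16; adjusted p = 0.27 without BaP replicate 1). The 8 members that did not pass included the ferritin heavy chain FTH1 (log2 0.47 ± 0.16, adjusted p = 0.095; adjusted p = 0.0043 by DESeq2's Wald test). The gene of NRF2 itself, NFE2L2, stood at 148 and 166 CPM with BaP and 144 and 172 CPM with vehicle, with overlapping groups (log2 -0.00 ± 0.12, adjusted p = 0.99). Its inhibitor KEAP1 was higher at 155 and 151 CPM with BaP and 100.3 and 79.9 CPM with vehicle (log2 0.76 ± 0.12, adjusted p = 0.00062), and so was its partner MAFG (0.71 ± 0.13), both kept. Of 20 genes for removing peroxide and superoxide outside this list 2 rose, the sestrins SESN2 (1.02 ± 0.15, kept) and SESN1 (0.64 ± 0.15; adjusted p = 0.13 without BaP replicate 2), which are also p53 targets, and MSRA fell from low counts (-1.65 ± 0.37; adjusted p = 0.15 without BaP replicate 1).

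**Figure D2:**
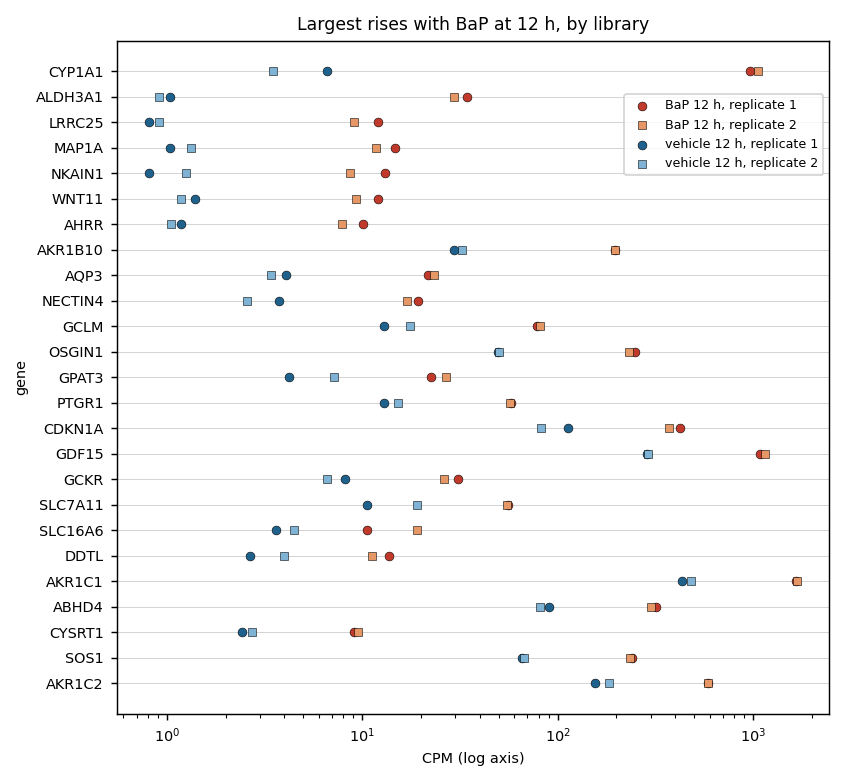
CPM (log axis) in each of the 4 libraries for the 25 largest rises at 12 h among genes with a mean of at least 5 CPM, circles for replicate 1 and squares for replicate 2. The choice of genes required both BaP libraries to lie to the right of both vehicle libraries. CYP1A1 is at the top and AKR1C2 at the bottom.

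The 25 largest rises among genes with a mean of at least 5 CPM held other genes from no single list. LRRC25 (12.1 and 9.08 CPM with BaP and 0.812 and 0.908 CPM with vehicle, log2 3.59 ± 0.36, adjusted p = 6.7e-06) rose from under 1 CPM to near 10 CPM. The microtubule-associated protein gene MAP1A (14.8 and 11.7 CPM with BaP and 1.03 and 1.33 CPM with vehicle, log2 3.46 ± 0.28, adjusted p = 5.7e-07) and NKAIN1, which binds the sodium pump (13.1 and 8.70 CPM with BaP and 0.812 and 1.26 CPM with vehicle, log2 3.36 ± 0.35, adjusted p = 7.9e-06), were at or near 1 CPM with vehicle and near 10 CPM with BaP. AQP3, a water and glycerol channel (21.7 and 23.3 CPM with BaP and 4.06 and 3.42 CPM with vehicle, log2 2.59 ± 0.21, adjusted p = 7.0e-07), and GPAT3, which starts triglyceride synthesis (2.11 ± 0.22), rose from a few CPM. ABHD4, a lipase of N-acyl phospholipids, stood at 317 and 300.4 CPM with BaP and 90.5 and 80.8 CPM with vehicle (log2 1.85 ± 0.12, adjusted p = 4.2e-08). SOS1, the exchange factor that loads RAS with GTP, stood at 241 and 233 CPM with BaP and 65.4 and 67.3 CPM with vehicle (log2 1.84 ± 0.14, adjusted p = 2.0e-07). A lack of overlap between groups was required for the choice of these 7 genes, and their calls were kept. GCKR, the regulator of glucokinase (1.94 ± 0.17), the carrier gene SLC16A6 (1.90 ± 0.25) and CYSRT1 (1.85 ± 0.25) were kept as well. DDTL was not (1.89 ± 0.35; adjusted p = 0.064 without vehicle replicate 1), and its reads can be divided with its near copy DDT.

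Targets of p53 that stop the cell cycle rose in 9 of 11 members tested, and 0 fell (median 0.77). The rising members numbered 5, 6, 6 and 7 with 1 library left out. CDKN1A (ENSG00000124762), the p21 inhibitor of cyclin-dependent kinases, stood at 421 and 369 CPM with BaP and 113 and 81.7 CPM with vehicle (log2 2.02 ± 0.15, adjusted p = 2.3e-07). SFN, the 14-3-3 sigma protein that holds CDK1 in the cytoplasm, stood at 168 and 143 CPM with BaP and 57.5 and 45.8 CPM with vehicle (log2 1.59 ± 0.13, adjusted p = 9.0e-07). BTG2, an antiproliferative gene, stood at 49.6 and 43.3 CPM with BaP and 18 and 16.8 CPM with vehicle (log2 1.41 ± 0.15, adjusted p = 9.7e-06). BaP replicate 1 was the higher of the BaP libraries for all 3, and the groups were clearly apart. PLK2 (1.23 ± 0.18) and PIDD1 (0.76 ± 0.12) rose as well, and these 5 calls were kept. GADD45A (0.77 ± 0.14; adjusted p = 0.077 without BaP replicate 1), PLK3 (0.82 ± 0.18; adjusted p = 0.10 without BaP replicate 1), E2F7 (0.59 ± 0.14; adjusted p = 0.15 without BaP replicate 1) and TOB1 (0.43 ± 0.12; adjusted p = 0.36 without BaP replicate 1) passed with less margin.

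Of 16 p53 targets in cell death, 9 rose and 0 fell (median 0.53), and 3, 4, 6 and 5 rose with 1 library left out. The death receptor FAS stood at 19.6 and 18.2 CPM with BaP and 6.86 and 6.22 CPM with vehicle (log2 1.53 ± 0.17, adjusted p = 1.8e-05). TP53I3, a quinone oxidoreductase, stood at 60.9 and 46.5 CPM with BaP and 24.9 and 23.1 CPM with vehicle (log2 1.16 ± 0.15, adjusted p = 6.4e-05). FDXR, the ferredoxin reductase of mitochondria, stood at 136 and 121 CPM with BaP and 71.7 and 61.3 CPM with vehicle (log2 0.95 ± 0.12, adjusted p = 8.1e-05). These 3 calls were kept, and BaP replicate 1 was again the higher one. The other 6, TNFRSF10A (1.13 ± 0.23; adjusted p = 0.071 without BaP replicate 1), AEN (0.53 ± 0.12; adjusted p = 0.096 without BaP replicate 2), BBC3 (0.82 ± 0.20; adjusted p = 0.13 without BaP replicate 1), and TRIAP1 (0.71 ± 0.18; adjusted p = 0.27 without BaP replicate 2), were lost in some fits. So were PERP (0.46 ± 0.12; adjusted p = 0.22 without BaP replicate 2) and PMAIP1 (1.79 ± 0.53; adjusted p = 0.38 without BaP replicate 2). BAX (0.24 ± 0.13) and TNFRSF10B (0.35 ± 0.11) did not pass. In the wider BCL2 and caspase list 2 of 28 rose, the BH3 genes BMF (31.97 and 30.02 CPM with BaP and 15.3 and 14.9 CPM with vehicle, log2 1.04 ± 0.17, adjusted p = 0.00061, kept) and BAK1 (0.67 ± 0.13; adjusted p = 0.076 without BaP replicate 2), and 0 fell.

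Secreted and metabolic p53 targets rose in 7 of 17 members, and 1 fell (median 0.30). With 1 library left out 4, 4, 4 and 5 rose. GDF15, a stress cytokine, stood at 1085 and 1145 CPM with BaP and 287 and 291 CPM with vehicle (log2 1.95 ± 0.27, adjusted p = 0.0015). TP53INP1, a stress protein that acts with p53, stood at 34.8 and 33.6 CPM with BaP and 10.1 and 14.1 CPM with vehicle (log2 1.49 ± 0.17, adjusted p = 2.6e-05). Both were kept. In the list of p53 and its feedback regulators, 5 of 12 members tested rose and 1 fell (median 0.22). MDM2, the ubiquitin ligase of p53, stood at 161 and 175 CPM with BaP and 62.1 and 83.2 CPM with vehicle (log2 1.21 ± 0.13, adjusted p = 1.6e-05, kept). PHLDA3, an AKT inhibitor, rose by 0.97 ± 0.14 (kept). PPM1D, the phosphatase that turns off the damage response, was higher with less margin (0.67 ± 0.17; adjusted p = 0.22 without BaP replicate 2). TP73 was lower (-0.87 ± 0.22; adjusted p = 0.19 without BaP replicate 1).

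In DNA repair, POLH, the polymerase that copies past bulky lesions, stood at 36.5 and 33.1 CPM with BaP and 20 and 19.6 CPM with vehicle (log2 0.81 ± 0.14, adjusted p = 0.00093, kept), and it was the 1 of 12 translesion genes that passed. In nucleotide excision repair, which removes BaP adducts, 2 of 24 rose: the damage sensors DDB2 (67.2 and 63.1 CPM with BaP and 47.1 and 41.99 CPM with vehicle, log2 0.55 ± 0.11, adjusted p = 0.0058; adjusted p = 0.11 without BaP replicate 1) and XPC (0.51 ± 0.15; adjusted p = 0.32 without BaP replicate 1). Of 28 genes of homologous recombination and the Fanconi pathway 0 rose and 2 fell. RAD51B had 0 and 2 counts with BaP and 23 and 22 with vehicle, a depth-scaled ratio of 17.4 in favour of vehicle (exact 95% interval 4.55 to 148, kept), and FANCC fell by 0.83 on the log2 scale (adjusted p = 0.24 without BaP replicate 1). MGMT, which removes alkyl groups from guanine, was lower as well (6.51 and 8.93 CPM with BaP and 18.7 and 11.7 CPM with vehicle, log2 -0.95 ± 0.24, adjusted p = 0.022; adjusted p = 0.24 without BaP replicate 1). RAD51B, FANCC and MGMT span 910.4, 328 and 301 kb of the genome. Of 19 checkpoint kinases and adaptors 0 rose and 1 fell, the DNA-dependent kinase PRKDC (-0.60 ± 0.14; adjusted p = 0.24 without BaP replicate 1).

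Genes of the AP-1 transcription factor rose in 6 of 11 members, and 0 fell (median 0.72). With 1 library left out 3, 3, 5 and 4 rose. FOSL1 stood at 83.7 and 70.3 CPM with BaP and 28.1 and 22.7 CPM with vehicle (log2 1.60 ± 0.14, adjusted p = 1.1e-06). ATF3, a stress-induced repressor, stood at 13.4 and 10.7 CPM with BaP and 4.06 and 5.10 CPM with vehicle (log2 1.38 ± 0.23, adjusted p = 0.00082), both kept. JUNB (0.86 ± 0.16; adjusted p = 0.052 without BaP replicate 2), JUN (0.68 ± 0.14; adjusted p = 0.053 without BaP replicate 1), FOSL2 (0.54 ± 0.14; adjusted p = 0.37 without BaP replicate 1) and MAFF (0.65 ± 0.16; adjusted p = 0.17 without BaP replicate 2) were higher with less margin. Of 20 other immediate early genes 1 rose, the mRNA decay factor ZFP36 (0.82 ± 0.16; adjusted p = 0.059 without vehicle replicate 2), and 1 fell, the kinase SGK1 (-0.79 ± 0.16; adjusted p = 0.056 without BaP replicate 1). LIF, a cytokine of the interleukin-6 family, stood at 36.6 and 35.02 CPM with BaP and 12.8 and 9.43 CPM with vehicle (log2 1.69 ± 0.17, adjusted p = 6.4e-06, kept), and it was the 1 of 17 NF-kB and cytokine genes that rose. In the list of ATF4 and the unfolded protein response 6 of 29 rose (2, 3, 3 and 3 with 1 library left out) and 2 fell. HERPUD1, which serves degradation at the endoplasmic reticulum (39.9 and 44.9 CPM with BaP and 68.9 and 73.1 CPM with vehicle, log2 -0.74 ± 0.12, adjusted p = 0.00076, kept), and the chaperone HSPA5 (-0.50 ± 0.14; adjusted p = 0.50 without BaP replicate 1) were the 2 that fell. Of 18 heat shock genes 3 rose and 0 fell, among them the co-chaperone BAG3 (0.58 ± 0.12; adjusted p = 0.16 without BaP replicate 1).

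WNT genes moved in both directions, 2 of 20 higher and 8 lower (median -0.27). The lower members numbered 2, 2, 2 and 8 with 1 library left out. WNT11, a ligand of non-canonical signalling, stood at 11.97 and 9.31 CPM with BaP and 1.40 and 1.19 CPM with vehicle (log2 3.02 ± 0.27, adjusted p = 2.2e-06). DKK1, a secreted WNT inhibitor, stood at 5.93 and 5.31 CPM with BaP and 18.6 and 16.3 CPM with vehicle (log2 -1.64 ± 0.18, adjusted p = 1.6e-05). LGR5, an R-spondin receptor, stood at 86.7 and 81.1 CPM with BaP and 138 and 131 CPM with vehicle (log2 -0.68 ± 0.12, adjusted p = 0.0015). These 3 calls were kept, and WNT11 lay higher and the other two lower in both BaP libraries. The other 6 that were lower are beta-catenin targets or feedback inhibitors. They include AXIN2 (-0.47 ± 0.12; adjusted p = 0.21 without BaP replicate 1), ZNRF3 (-0.42 ± 0.11; adjusted p = 0.20 without BaP replicate 1), and RNF43 (-0.46 ± 0.13; adjusted p = 0.27 without BaP replicate 2). The rest were NKD1 (-0.51 ± 0.14; adjusted p = 0.24 without BaP replicate 1), NOTUM (-0.54 ± 0.15; adjusted p = 0.28 without BaP replicate 1) and SP5 (-0.52 ± 0.13; adjusted p = 0.23 without BaP replicate 1). Both BaP libraries lay below both vehicle libraries in each of them, as in all genes that fell, here by a small step. NKD1, for example, stood at 507 and 495 CPM with BaP and 751 and 671 CPM with vehicle. CTNNB1, the gene of beta-catenin, did not pass (log2 -0.23 ± 0.13, adjusted p = 0.35).

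Glucose uptake genes fell. SLC2A1 (GLUT1), a basal glucose transporter, stood at 566 and 598 CPM with BaP and 1373 and 1169 CPM with vehicle (log2 -1.13 ± 0.15, adjusted p = 0.00012). SLC2A3 (GLUT3) stood at 270.4 and 229 CPM with BaP and 512 and 468 CPM with vehicle (log2 -0.97 ± 0.14, adjusted p = 0.00021), and SLC2A2 (GLUT2), the transporter of hepatocytes, at 7.09 and 8.78 CPM with BaP and 16.2 and 18.2 CPM with vehicle (log2 -1.10 ± 0.20, adjusted p = 0.0017). All 3 were kept, and each was lower in both BaP libraries by about 2-fold. Liver pyruvate kinase PKLR (-0.73 ± 0.17; adjusted p = 0.12 without BaP replicate 2) and hexokinase HK2 (-0.44 ± 0.12; adjusted p = 0.44 without BaP replicate 1) were lower with less margin. In the list of 35 glucose and hypoxia genes 5 fell (3, 3, 4 and 4 with 1 library left out) and 2 rose, the peptide hormone gene ADM (1.07 ± 0.20; adjusted p = 0.064 without BaP replicate 1) and HIF1A (0.40 ± 0.11; adjusted p = 0.24 without BaP replicate 2).

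Genes of cholesterol and fatty acid synthesis leaned lower, with medians of -0.22 and -0.23. In fatty acid oxidation, 1 of 21 genes tested rose and 2 fell (median -0.01). Over all genes tested, 3.41% rose and 4.84% fell. Of 25 genes of cholesterol synthesis and uptake 0 rose and 5 fell (median -0.22), with 1, 3, 2 and 3 falling when 1 library was left out. LSS, which makes lanosterol (-0.67 ± 0.12; adjusted p = 0.064 without BaP replicate 1), and the mevalonate kinase MVK (-0.58 ± 0.13; adjusted p = 0.13 without BaP replicate 2) were lower with less margin. Of 22 genes of fatty acid synthesis 1 rose and 4 fell (0, 2, 1 and 3 with 1 left out), and of 18 apolipoprotein and lipid secretion genes 1 rose and 5 fell (0, 1, 3 and 2). APOB, the protein of very low density lipoprotein, stood at 6142 and 6966 CPM with BaP and 10235 and 12767 CPM with vehicle (log2 -0.81 ± 0.18, adjusted p = 0.0097; adjusted p = 0.20 without BaP replicate 1). Of 36 plasma and coagulation genes 1 rose and 4 fell (0, 1, 2 and 4), among them the fibrinogen chains FGA (339 and 340.1 CPM with BaP and 514 and 517 CPM with vehicle; adjusted p = 0.13 without BaP replicate 1) and FGG (-0.54 ± 0.15; adjusted p = 0.32 without BaP replicate 2). ALB, the albumin gene, did not pass (log2 -0.18 ± 0.16, adjusted p = 0.63). Of 24 hepatocyte transcription factors 3 rose (0, 0, 1 and 0) and 3 fell (0, 1, 1 and 2), and HNF4A did not pass (log2 0.05 ± 0.12, adjusted p = 0.88).

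Proliferation genes moved by small steps. Of 37 mitotic genes 0 rose and 7 fell (median -0.22), and all 7 calls were lost in some fits (0, 0, 1 and 4 fell with 1 library left out, and 3 in DESeq2's Wald test). The anaphase activator CDC20 stood at 87.2 and 88.8 CPM with BaP and 133 and 116 CPM with vehicle (log2 -0.51 ± 0.12, adjusted p = 0.016; adjusted p = 0.17 without BaP replicate 1). The kinase PLK1 stood at 233 and 244 CPM with BaP and 382 and 294 CPM with vehicle (log2 -0.50 ± 0.14, adjusted p = 0.031; adjusted p = 0.32 without vehicle replicate 1). Of 42 DNA replication genes 1 rose, RRM2 (0.51 ± 0.12; adjusted p = 0.22 without BaP replicate 2), and 3 fell, among them MCM3 (-0.51 ± 0.12; adjusted p = 0.22 without BaP replicate 1). CCND3, a G1 cyclin, was higher at 45.9 and 43.95 CPM with BaP and 28.6 and 25.9 CPM with vehicle (log2 0.72 ± 0.13, adjusted p = 0.0020, kept), and MYC did not pass (log2 -0.02 ± 0.14, adjusted p = 0.97). Of 30 proteasome subunits 0 passed in edgeR or DESeq2 and 4 at an unadjusted p under 0.05. Their log2 differences were above 0 in all 30 (0.03 to 0.41, median 0.21). Both BaP libraries were above both vehicle libraries in 24, an order that 25.4% of all genes tested had. Of 41 nuclear respiratory chain subunits 0 passed in edgeR or DESeq2, and 0 at an unadjusted p under 0.05 (median 0.00). MT-CYB, the mitochondrial cytochrome b gene, was lower at 3661 and 3516 CPM with BaP and 6929 and 6882 CPM with vehicle (log2 -0.94 ± 0.16, adjusted p = 0.0014, kept), while the other 12 mitochondrial protein genes did not pass.

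In the list of tight junction and adhesion genes, 2 of 22 members tested rose and 3 fell (median -0.04). NECTIN4 (19.2 and 16.9 CPM with BaP and 3.76 and 2.59 CPM with vehicle, log2 2.50 ± 0.23, adjusted p = 2.2e-06) and the tight junction gene CLDN4 (159 and 164 CPM with BaP and 84.1 and 74.3 CPM with vehicle, log2 1.03 ± 0.11, adjusted p = 1.2e-05) rose. CLDN1 (40.8 and 40.95 CPM with BaP and 69.4 and 83.2 CPM with vehicle, log2 -0.90 ± 0.12, adjusted p = 0.00012) and E-cadherin CDH1 (6.39 and 8.08 CPM with BaP and 25.01 and 19.5 CPM with vehicle, log2 -1.60 ± 0.25, adjusted p = 0.0014) fell. All 4 were kept. In the list of actin cytoskeleton and YAP target genes, 0 of 20 members tested rose and 2 fell (median -0.06). ANKRD1, a target of the coactivator YAP, stood at 14.3 and 14.5 CPM with BaP and 29.4 and 29.6 CPM with vehicle (log2 -1.03 ± 0.17, adjusted p = 0.0012, kept). Among amino acid transporters SLC6A6, which imports taurine, rose (98.3 and 97.1 CPM with BaP and 57.8 and 61.1 CPM with vehicle, log2 0.72 ± 0.12, adjusted p = 0.00076, kept) alongside SLC7A11, and SLC38A3 (-0.50 ± 0.13; adjusted p = 0.29 without BaP replicate 1) was lower. TAP1, which carries peptides to class I molecules, rose by 0.76 ± 0.12 (kept), and 2 of 25 interferon-stimulated genes passed in all.

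The largest falls were in genes that cover long stretches of the genome. SNX29 (ENSG00000048471), a sorting nexin, stood at 0.232 and 1.00 CPM with BaP and 20.3 and 21.2 CPM with vehicle (log2 -4.89 ± 0.29, adjusted p = 1.9e-08). SHANK2, a synaptic scaffold, stood at 7.67 and 9.16 CPM with BaP and 59.9 and 63.2 CPM with vehicle (log2 -2.85 ± 0.15, adjusted p = 3.5e-09). PRKCA, protein kinase C alpha, stood at 12.8 and 13.6 CPM with BaP and 80.4 and 85.7 CPM with vehicle (log2 -2.65 ± 0.13, adjusted p = 3.5e-09). On average the level was over 6 times lower with BaP in these 3, and no BaP library came near a vehicle library. The reads of SNX29 can be divided with its partial copies on the same chromosome. Among genes with a mean of at least 5 CPM, the 24 largest falls shown here spanned 296 to 1288 kb in GENCODE 29, against a median of 29.2 kb over the genes tested with a known span, and their log2 differences ran from -4.89 to -1.78. They include the integrin adaptor TLN2 (-2.32 ± 0.15), the phosphatases PTPRG (-2.36 ± 0.17) and PTPRM (-2.02 ± 0.16), the phospholipase PLCB1 (-2.34 ± 0.14), the exocyst genes EXOC4 (-2.05 ± 0.16) and EXOC6B (-1.93 ± 0.17), and the RAC exchange factor DOCK1 (-2.00 ± 0.14). They also include BCAS3 (-2.72 ± 0.20), TTC28 (-2.43 ± 0.16), VPS13B (-2.23 ± 0.21), TRAPPC9 (-2.20 ± 0.21), SCFD2 (-2.20 ± 0.20), LRBA (-2.01 ± 0.14), CDKAL1 (-1.98 ± 0.20), DIP2C (-1.98 ± 0.22), SBF2 (-1.92 ± 0.19), CADPS2 (-1.92 ± 0.20), SUPT3H (-1.82 ± 0.24), PLPPR1 (-1.81 ± 0.20), TBC1D5 (-1.79 ± 0.16) and MAD1L1 (-1.78 ± 0.17). All 24 calls were kept.

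**Figure D3:**
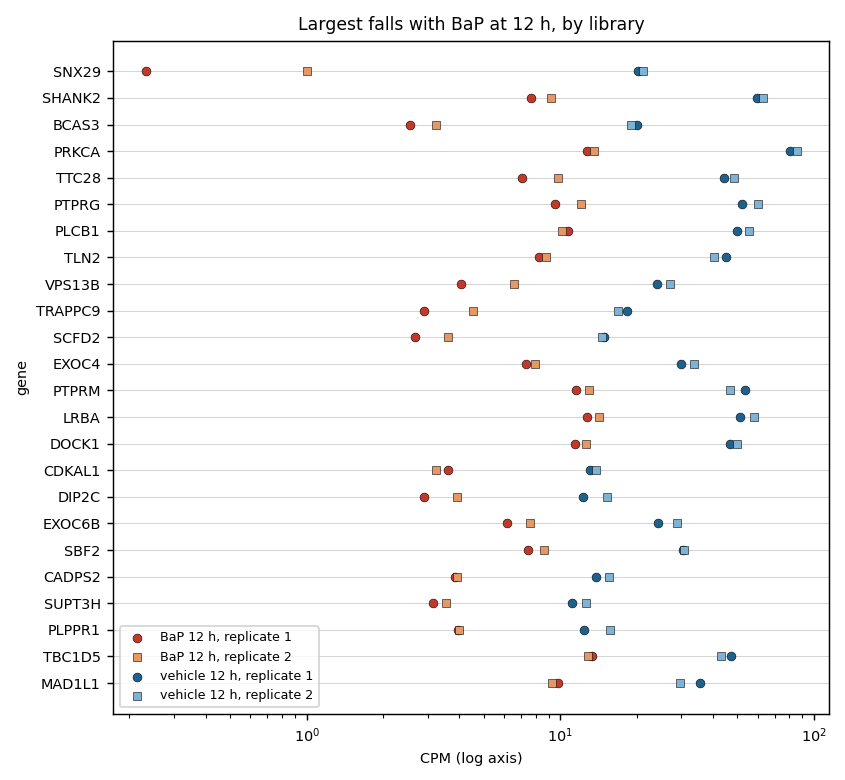
CPM (log axis) in each of the 4 libraries for 24 of the 25 largest falls at 12 h among genes with a mean of at least 5 CPM, circles for replicate 1 and squares for replicate 2. The choice of genes required both BaP libraries to lie to the left of both vehicle libraries. SNX29 at the top is furthest apart.

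Across all genes with a known span, the share that fell rose from bin to bin. It was 1.60% of 3058 genes up to 10 kb, 1.94% of 3869 from 10 to 30 kb, 2.85% of 4358 from 30 to 100 kb and 11.3% of 1481 from 100 to 200 kb. It was 23.3% of 443 genes from 200 to 300 kb, 42.2% of 263 from 300 to 500 kb and 52.0% of 125 over 500 kb. Among falls named in other paragraphs, NCOA1 spans 279 kb, MSRA 375 kb, PRKDC 187 kb, SGK1 149 kb and LGR5 147 kb. The part of span in these falls was not tested. In the last bin the median log2 difference was -0.75, -0.97, -0.75 and -0.93 in the 4 comparisons of 1 BaP with 1 vehicle library, against -0.14 between the BaP replicates and -0.08 between the vehicle replicates. Each BaP library was thus below each vehicle library for genes over 500 kb by more than replicates differed. The replicate differences also moved down with span, from 0.09 (BaP) and 0.13 (vehicle) up to 10 kb. With no filter on low counts, the median over all 4 libraries in the bin over 500 kb was -0.59 in place of -0.95. The share that rose went from 4.12% in the first bin to 2.03% from 200 to 300 kb, 0.760% from 300 to 500 kb and 0 over 500 kb. The median level did not follow span in 1 direction: over the 7 bins, from the shortest, it was 11.97, 20, 18.9, 22.4, 16.7, 11.1 and 6.21 CPM. Its part in the pattern was not tested. Earlier results of these data had shown the pattern by span, so these values describe it and are no independent support.

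**Figure D4:**
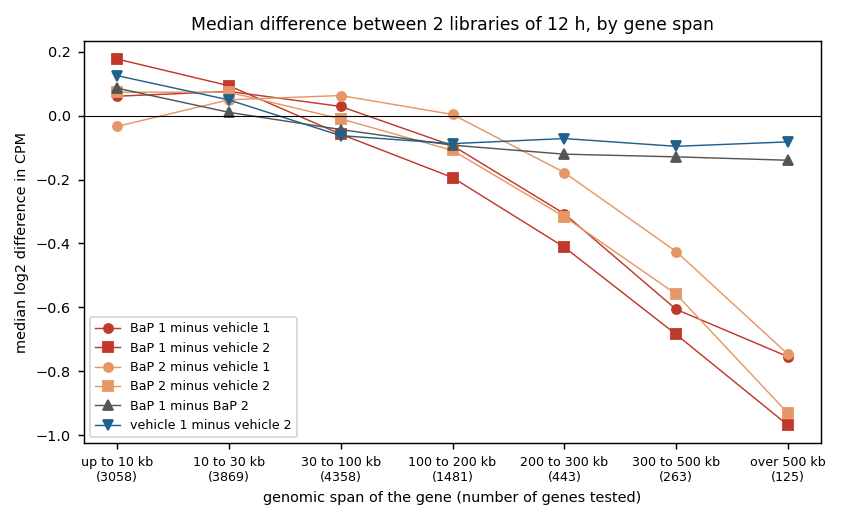
Median log2 difference in CPM between 2 libraries of 12 h (y axis) for genes grouped by genomic span (x axis, with the number of genes tested), for the 4 pairs of a BaP and a vehicle library and the 2 pairs of replicates. The 4 BaP minus vehicle lines drop to between -0.75 and -0.97 over 500 kb. The replicate pairs move less, from 0.09 (BaP) and 0.13 (vehicle) up to 10 kb to -0.14 and -0.08 over 500 kb.

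Some genes went against their span. Over 200 kb, 11 genes rose: the lncRNA gene LUCAT1 (3.95 and 4.54 CPM with BaP and 0.590 and 1.12 CPM with vehicle, log2 2.30 ± 0.40, adjusted p = 0.0012), the actin-bundling gene PALLD (23.5 and 22.9 CPM with BaP and 8.19 and 9.29 CPM with vehicle, log2 1.41 ± 0.16, adjusted p = 2.7e-05), LINC00511, DGKG, MGST1, COL4A2, BCAR3, RGL1, ABCB1, SIK3 and EPS8. The first 5 calls were kept, and the other 6 were lost when 1 library was left out (COL4A2 adjusted p = 0.25 without BaP replicate 1, BCAR3 adjusted p = 0.25 without BaP replicate 2, RGL1 adjusted p = 0.32 without BaP replicate 1, ABCB1 adjusted p = 0.26 without BaP replicate 2, SIK3 adjusted p = 0.20 without BaP replicate 2 and EPS8 adjusted p = 0.47 without BaP replicate 2). AHR itself has an annotated span of 429.8 kb and did not pass. Such a span covers all annotated transcripts of a gene, so the transcripts made in these cells can be shorter. Among genes up to 10 kb, 49 fell, such as DKK1, ANKRD1, MT-CYB and the mesendoderm gene MIXL1 (23.8 and 24.02 CPM with BaP and 44.6 and 41.2 CPM with vehicle, log2 -0.84 ± 0.13, adjusted p = 0.00065, kept). By contrast, RPTOR, the scaffold of the mTORC1 kinase complex, spans 422 kb and fell, as many genes of such span did. It stood at 36.3 and 38.6 CPM with BaP and 129.6 and 122 CPM with vehicle (log2 -1.75 ± 0.11, adjusted p = 4.2e-08, kept). Its partner kinase MTOR was lower as well (-0.46 ± 0.12; adjusted p = 0.41 without BaP replicate 1).

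The response at 12 h was set against that at 24 h by the difference between the 2 contrasts, which use different BaP and vehicle libraries. The difference passed for 80 genes (0.543%). That count was 34 and 50 without BaP replicate 1 and 2 of 12 h, 52 without vehicle replicate 1 of 12 h, 348 without BaP replicate 1 of 24 h, 28 and 45 without vehicle replicate 1 and 2 of 24 h, and 240 with no filter on low counts. Of the genes lower at 12 h, 62 moved back up by 24 h and 0 moved further down. Of those higher at 12 h, 11 moved down and 0 further up. Both sets were picked by the 12 h contrast, which the difference subtracts, so its direction was partly set by that choice. SHANK2 was at -2.85 at 12 h and -0.61 ± 0.13 at 24 h, PRKCA at -2.65 and -0.66 ± 0.13, and RPTOR at -1.75 and -0.24 ± 0.11. These 3 falls were thus smaller at the later time. Of the 62 genes, all with a known span, 57 covered over 200 kb. Long genes were already frequent among all 694 genes lower at 12 h with a known span. Of these, 103 covered 200 to 300 kb, 111 covered 300 to 500 kb and 65 over 500 kb. Of the 13597 genes tested with a known span, 443, 263 and 125 fell in those bins. Among rises, HMOX1 went from 1.63 to -0.12 ± 0.19, GCLM from 2.38 to 0.87 ± 0.17, OSGIN1 from 2.27 to 0.82 ± 0.12 and ABHD4 from 1.85 to 0.74 ± 0.12. GABARAPL1, an autophagy gene (22.9 and 19.9 CPM with BaP and 5.98 and 6.78 CPM with vehicle at 12 h, log2 1.74 ± 0.19, adjusted p = 1.2e-05, kept), went from 1.74 to 0.37 ± 0.20, and ATOH8 from 1.04 to -0.35 ± 0.22. For CYP1A1 (7.66 and 7.74 ± 0.28), ALDH3A1 (5.02 and 5.17 ± 0.29), AKR1B10 (2.67 and 2.84 ± 0.16), CDKN1A (2.02 and 1.87 ± 0.15) and TRAPPC9 (-2.20 and -1.83 ± 0.22) the difference did not pass. A difference that misses the threshold does not show that the times were alike, and BaP replicate 1 of 24 h was the shallowest library of the study (2592272 counts).

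**Figure D5:**
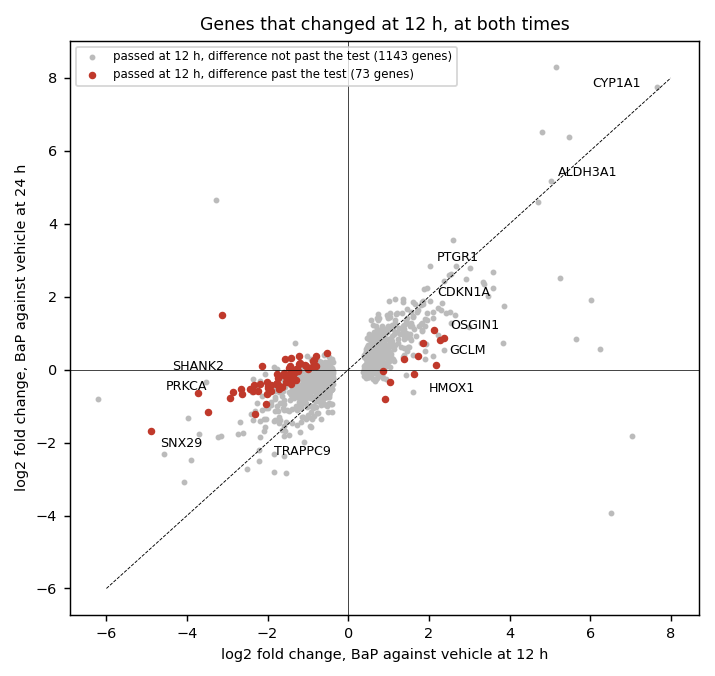
Log2 fold change with BaP at 12 h (x axis) and at 24 h (y axis) for the genes that passed at 12 h, in red where the difference between times passed. Red points lie above the dashed line of equal change on the left and below it on the right. Choosing genes by their change at 12 h favours these sides. Falls such as SHANK2 and PRKCA are on the left, and HMOX1, GCLM and OSGIN1 on the right.

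A few genes had counts in 1 group only. With no count in either vehicle library, 16 genes had at least 3 counts in both BaP libraries, and 38 genes were the reverse. PNMA6A had 8 and 11 counts with BaP and 0 and 0 with vehicle, at least 8.17-fold higher against a floor of 3 counts over the vehicle group (adjusted p = 0.0053, kept). TRIM74 had 0 and 0 counts with BaP and 12 and 12 with vehicle, at least 6.20-fold lower by the same floor (adjusted p = 0.0089; adjusted p = 0.12 without BaP replicate 2), and its reads can be divided with near copies. At such counts these are statements about detection at this depth.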

How the data were processed

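The study holds 8 poly-A libraries of HepG2 cells, with 2 in each group of treatment and time. Per the submitters' processing notes, Bowtie 0.12.7, RSEM 1.1.7 and edgeR were used. The authors deposited, for each library, an estimated count per gene with Ensembl identifiers and RSEM's fraction of transcripts, here used only to check gene levels. The genome build and the use of strand in counting are not given in the sources used here. A gene and its antisense partner therefore cannot be told apart. Estimated counts were rounded to whole numbers, scaled by TMM and filtered by filterByExpr (minimum count 10, minimum total 15). edgeR 4.0.16 (R 4.3.3) fitted 1 mean per group to all 8 libraries with robust quasi-likelihood, and tests were two-sided. Symbols came from a reference list of gene names, and from GENCODE 29 where that list gave none. Genomic spans came from GENCODE 29, and promoter windows from RefSeq. On simulated data for the comparison at 12 h, 14488 genes were run, with changes placed only in genes with a mean over 5 CPM. The fit recovered 94% of 2-fold and 100% of 4-fold rises, and 92% and 100% of such falls. Of its 218 calls, 25 were unchanged genes, a larger share than the threshold of 0.05. Recovery was not tested for genes with lower levels or for changes under 2-fold, the size of most changes that passed.

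The comparison and the gene lists were chosen with earlier results of these data known, so counts over a list are descriptions. Genes were named by rule: the 25 largest rises and falls among genes that passed, had a symbol, a mean of at least 5 CPM and no overlap; up to 5 members of each list with the smallest p; AHR targets, AHR, ARNT, CDKN1A, MDM2, GDF15, NFE2L2 and KEAP1; the 5 largest each way of the difference between times; and genes with counts in 1 group only. A few genes picked by these criteria are not reported here. Further list members and genes given beside counts were chosen after their values were seen. Alternatives were DESeq2 1.42.0 (size factors, Wald test), no filter on low counts, only the 4 libraries of 12 h, a replicate block and leaving out each library.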

Additional observations from a re-analysis of the deposited data

Results flagged for a closer look

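The response to BaP differed between times, by edgeR's test of the difference between the contrasts at 24 h and 12 h, for 26 of the genes named here. For falls that were smaller at 24 h, the log2 fold change at 24 h minus that at 12 h was 3.21 for SNX29 (adjusted p = 0.00091), 2.24 for SHANK2 (adjusted p = 3.2e-05), 1.99 for PRKCA, 1.93 for PLCB1, 1.91 for TTC28, 1.79 for SCFD2, 1.78 for PTPRG, 1.69 for PTPRM and 1.65 for VPS13B. It was 1.54 for CDKAL1, 1.51 for RPTOR, 1.5 for DOCK1, 1.49 for SBF2, 1.48 for DIP2C, 1.41 for MAD1L1, 1.39 for TBC1D5, 1.34 for LRBA, 1.34 for EXOC6B, 1.12 for EXOC4 and 1.1 for TLN2.

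For rises that were smaller at 24 h, the same difference was -1.75 for HMOX1 (adjusted p = 0.0039), -1.51 for GCLM, -1.46 for OSGIN1, -1.38 for ATOH8, -1.37 for GABARAPL1 and -1.12 for ABHD4. Of the 62 genes lower at 12 h that moved up by 24 h, 20 had a log2 fold change above 0 at 24 h and 13 were still lower by the test. Their median was -1.61 at 12 h and -0.24 at 24 h.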

How the results depend on the processing

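With 1 library of 12 h left out, the higher genes numbered 174 to 335 in place of 503 and the lower genes 250 to 566 in place of 713. Genes whose response differed between times numbered 34 to 83 in place of 80 with 1 library of 12 h left out, and 28 to 348 with 1 of 24 h left out. DESeq2's Wald test called 292 genes higher and 508 lower, and with no filter on low counts 240 genes differed between times. For the counts of higher and lower genes, DESeq2's size factors (504 and 719), no filter (548 and 893) and a fit to the 4 libraries of 12 h alone (649 and 1000) stayed within 1.5 times. The replicate numbers were not taken as pairs: deviations of same-numbered BaP and vehicle libraries at 12 h correlated at 0.42, the other pairs of groups at -0.24 to 0.08. With the replicate block the counts were 511, 718 and 80. Of the 207 genes tested that the text names, the block ended the calls of CD14, FGG, HSPA5 and PMAIP1. No filter ended those of CD14, HIF1A and PMAIP1, the 4 libraries alone that of CD14, size factors that of SLCO2B1, and the Wald test 20, each of which was also lost with some library left out. DESeq2 gave no adjusted p for CYP1A2, CYP1B1, PMAIP1, PNMA6A, RAD51B, SERPINB2 and TRIM74. TNFRSF10B passed in the fit to the 4 libraries alone (adjusted p = 0.044), and FTH1 there (0.017), with no filter (0.043) and in the Wald test (0.0043). KRT19 passed with no filter (0.0089) and without vehicle replicate 2 (0.017), and COL1A1 with the replicate block (0.0031). Log2 differences that turned sign were in genes that did not pass: with 1 library left out the range was -0.15 to 0.0038 for ARNT, -0.21 to 0.75 for EREG, -0.087 to 0.17 for HNF4A, -0.21 to 0.073 for LYZ, -0.12 to 0.14 for SOX9 (-0.00078 with no filter), -0.12 to 0.11 for NFE2L2 and -0.13 to 0.40 for TIPARP. The median of genes over 500 kb was -0.95, -0.59 with no filter and -0.75 without vehicle replicate 2, and that of 300 to 500 kb was -0.56, and -0.70 without BaP replicate 2. The causes were not tested. With 1 library left out, the lone sample of its group is assumed to vary like the other groups. With 2 libraries per group, genes of few counts allow statements of detection only.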
